A study of Mus musculus with 24 samples.

Results

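RNA of CD8+ T cells from conditional knockouts of Tcf7 (cKO, by the labels) was compared between 4 and 8 h after plating on activating antibodies. The comparison uses 6 of the 24 libraries of the series, namely the 3 libraries of cKO mice 1, 2 and 3 at 4 h and the 3 libraries of the same mice at 8 h, and covers all genes. The T cells came from mice with the OT-I transgenic T cell receptor and were taken from spleens and lymph nodes with CD8 microbeads. All mice of the series carried floxed Tcf7 alleles (Tcf7FL/FL) and OT-I. The cKO mice were E8i-cre+, a cre transgene under an enhancer of Cd8a, and the wild-type mice (WT, mice 4, 5 and 6) were E8i-cre-, so an effect of the cre transgene cannot be told apart from that of the deletion. After a 0 h sample, the cells were activated on plate-bound anti-CD3 and anti-CD28 (1 ug/mL) and received murine IL2 (6 ng/mL). The 4 h and the 8 h groups share genotype and stimulus and differ in time. Each library holds the amplified RNA of 1000 sorted cells, made with the Smart-seq2 protocol, which covers whole transcripts and adds no molecular identifiers. The counts cover whole genes, so the level of Tcf7 does not check the deletion, and groups are named by their labels.

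An antibody against CD3 stands in for antigen on the T cell receptor, and an antibody against CD28 supplies the co-stimulatory signal. Within the first hour such signals switch on immediate early transcription factors and NF-kappaB, which drive cytokine genes and then their own inhibitors. In the hours that follow, naive T cells lower the genes of quiescence, enlarge their nucleoli, raise protein synthesis, amino acid uptake and glycolysis, and prepare for DNA replication, while the first division comes about a day later. Tcf7 encodes TCF1, a DNA-binding factor that marks naive T cells and falls as effector cells form.

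The 6 libraries held 6158385 to 7699282 expected counts, which RSEM estimates per gene. Reads of ribosomal RNA (Rn45s) made up 19.4 to 20.6% of them at 4 h and 14.7 to 15.6% at 8 h. On the first principal component of all 24 libraries, which orders the times, the 4 h library of mouse 3 (−35.72) lay apart from those of mice 1 and 2 (−24.53 and −23.82), and the 8 h library of mouse 2 (24.01) from those of mice 1 and 3 (5.14 and 9.56). Of the 10 genes that define CD8 T cells and are in the files, none was at 0 in any of the 6 libraries, and their summed level was 4091 to 4472 TPM (a level scaled for gene length and depth) at 4 h and 2888 to 3120 TPM at 8 h. Summed markers of B cells (10 genes) were at 5.58 to 8.35 TPM at 4 h and 3.78 to 6.78 at 8 h, those of macrophages, monocytes and dendritic cells (15 genes) at 2.32 to 4.46 and 0.92 to 2.02, and those of NK cells (10 genes) at 5.75 to 6.59 and 2 to 4.72. In the 15 genes of macrophages, monocytes and dendritic cells 5 to 11 were at 0 in a library, and of the 10 neutrophil and mast cell genes 8 to 10 were at 0. The CD4 and regulatory T cell list (5 genes) summed to 63.5 to 97.4 TPM at 4 h and 19.5 to 25.6 at 8 h, mostly from Cd40lg, while Cd4 itself was at 0 to 0.27 TPM. The stroma and endothelium list (12 genes) summed to 34.1 to 47.4 and 14 to 23.8 TPM, mostly from Pecam1. Its epithelial gene Epcam was at 4.22 to 7.93 TPM at 4 h and 2.2 to 4.54 at 8 h, and its 3 collagen genes were at 0 to 0.09 TPM. The part of these other cell types in the results was not tested. In a bulk sample, fewer cells with an RNA and less of that RNA per cell cannot be told apart.

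Between 4 and 8 h, 4636 of 11470 tested genes changed in cKO, which is 40.4% (edgeR's quasi-likelihood test, adjusted p under 0.05, here termed called). Of these 2390 rose (20.8% of the tested genes) and 2246 fell (19.6%), and the median log2 fold change of all tested genes was −0.007. The scaling sets the bulk of genes near 0, so this median and the balance of rises and falls follow in part from it. Rises and falls are relative to the other RNA of a library, and the amount of RNA per cell is not in the data used here. At least 2-fold changes were fewer, with 544 higher (4.74%) and 520 lower (4.53%). The 3 libraries of 8 h all lay above the 3 of 4 h in CPM (counts scaled to library size) for 2798 genes (24.4%) and all below them for 2657 (23.2%), and 4347 of the 4636 called genes were among these. The change had the same direction in all 3 mice for 4552 of the called genes. The calls come from these same libraries, so such agreement among called genes is not separate support. Its share over all tested genes was not counted. Median changes of the called genes were smaller in mouse 1, with 0.53 for those that rose and −0.52 for those that fell, than in mouse 2 (0.69 and −0.78) and mouse 3 (0.63 and −0.73). Leaving out the 8 h library of mouse 2 and the 4 h library of mouse 3 together left 3102 calls, of which 1542 were higher and 1560 lower.

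**Figure D1:**
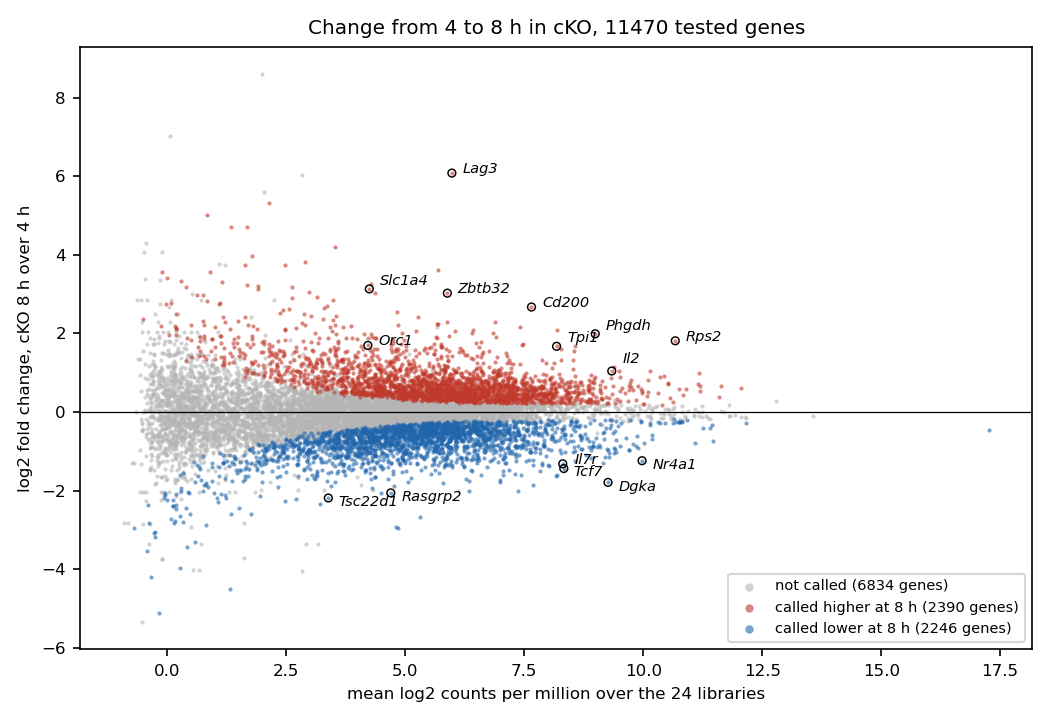
Log2 fold change of 8 h over 4 h in cKO (vertical axis) against mean abundance in log2 CPM over the 24 libraries (horizontal axis), 1 point per tested gene, with 2390 genes called higher in red and 2246 called lower in blue. Lag3 stands at the top of the well-measured genes, and the ringed naive T cell genes Tcf7 and Il7r lie below 0.

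The largest changes were ranked among called genes with no overlap between the times and the same direction in all 3 mice. The mean of the higher group had to reach 10 TPM, and unnamed gene models (such as Rik and Gm symbols) were passed over. The largest increase in this ranking was that of an inhibitory receptor. Lag3, which binds MHC class II and dampens T cell receptor signals (chromosome 6, 124904361 to 124911705, minus strand, GRCm38), was at 0.57, 1.88 and 1.08 TPM at 4 h against 70.9, 98.2 and 70.2 TPM at 8 h in mice 1, 2 and 3, the order used throughout. It was near absent in every 4 h library and present in every 8 h library (log2 fold change 6.08, SE 0.23, adjusted p = 2.03e-17). Zbtb32, a zinc finger repressor that limits T cell cytokine production (chromosome 7, 30589681 to 30598909, minus strand), was at 9.01, 3.88 and 5.2 TPM at 4 h against 58.2, 47.2 and 37.7 TPM at 8 h (log2 fold change 3.03, SE 0.26, adjusted p = 1.3e-08). Cd200, a surface ligand that restrains myeloid cells (chromosome 16, 45382135 to 45409053, minus strand), was at 36.4, 32.8 and 31.8 TPM at 4 h against 177, 226 and 223 TPM at 8 h (log2 fold change 2.67, SE 0.16, adjusted p = 1.47e-11).

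The other 12 of the 15 largest increases in this ranking came from genes of varied function. Dnph1, a hydrolase of deoxynucleoside monophosphates, was at 0.99, 2.74 and 2.2 TPM at 4 h against 14.6, 20.5 and 19 TPM at 8 h (log2 fold change 3.27, SE 0.34, adjusted p = 2.61e-09). Bcat1, the cytosolic aminotransferase of branched-chain amino acids, was at 10.6, 9.53 and 11.4 TPM at 4 h against 40.2, 50.8 and 47.1 TPM at 8 h (log2 fold change 2.18, SE 0.11, adjusted p = 5.88e-17). Crabp2, which carries retinoic acid, was at 3.46, 5.08 and 6.01 TPM at 4 h against 26.5, 35.1 and 29.3 TPM at 8 h (log2 fold change 2.70, SE 0.28, adjusted p = 1.53e-09). Log2 fold changes were 3.12 for the neuropeptide gene Npw, 2.93 for neuritin (Nrn1), 2.55 for pleckstrin (Plek), a target of protein kinase C, and 2.35 for Mtfp1, a mitochondrial fission protein. Tmem238, a transmembrane protein, had a value of 3.17. Il12rb1, the shared receptor chain for IL12 and IL23, was at 6.58, 5.15 and 4.46 TPM at 4 h against 21, 33.6 and 19.7 TPM at 8 h (log2 fold change 2.25, SE 0.30, adjusted p = 1.1e-05). Ccl9, a chemokine, was at 20.1, 23 and 14.2 TPM at 4 h against 109.9, 83.9 and 80.4 TPM at 8 h (log2 fold change 2.29, SE 0.32, adjusted p = 2.18e-05). In Sdf2l1, an ER chaperone cofactor (2.41), and Rnf187, a ubiquitin ligase (2.29), the 4 h library of mouse 3 was the lowest, at 10.3 and 16.8 TPM against 18.7 and 38.6 in mouse 1, and its part in these sizes was not tested. Without that library both were still called (adjusted p = 1.06e-10 and 0.00405).

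The 15 largest decreases in the same ranking included regulators of Ras and Rap1. Dgka, diacylglycerol kinase alpha, which removes the second messenger diacylglycerol and so brakes Ras signalling (chromosome 10, 128720134 to 128744855, minus strand), was at 545, 503 and 549 TPM at 4 h against 183, 117 and 151 TPM at 8 h (log2 fold change −1.79, SE 0.092, adjusted p = 4.26e-17). The exons of Dgka overlap those of Pmel on the opposite strand, and the protocol keeps no strand. Rasgrp2, a guanine nucleotide exchange factor for Rap1 that activates integrins (chromosome 19, 6399340 to 6415216, plus strand), was at 15.4, 12.9 and 12.2 TPM at 4 h against 4.14, 1.85 and 3.57 TPM at 8 h (log2 fold change −2.06, SE 0.40, adjusted p = 0.000392). Rasa3, a GTPase-activating protein for Ras and Rap1, was at 131, 126 and 129 TPM at 4 h against 43.2, 24.1 and 37.3 TPM at 8 h (log2 fold change −1.85, SE 0.12, adjusted p = 7.39e-13). Separation of the times was a condition for the choice of these genes. In each of them the 8 h library of mouse 2 was the lowest.

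The kinases Map3k1 (−1.79) and Map4k2 (−1.77), the cyclic nucleotide phosphodiesterase Pde2a (−2.00), the phosphatase regulator Ppp1r16b (−1.78) and Ldlrad4, an inhibitor of TGF-beta signalling (−1.87), fell as well. Hsd11b1, the enzyme that activates glucocorticoids, was at 111, 158 and 177 TPM at 4 h against 35.6, 32.6 and 39.1 TPM at 8 h (log2 fold change −2.01, SE 0.14, adjusted p = 8.29e-13). Tsc22d1, a leucine zipper protein, was at 30.8, 16.3 and 27.8 TPM at 4 h against 6.99, 3.53 and 3.11 TPM at 8 h (log2 fold change −2.19, SE 0.28, adjusted p = 1.44e-07). Decreases were also called for Abcg1, a cholesterol exporter (−1.80), for the adhesion receptor Cd97 (−1.74) and for Ndc80, a kinetochore subunit (−1.94). For Emc9, a subunit of an ER membrane insertase (−1.70), reads shared with the overlapping Psme1 on the opposite strand make the value uncertain. H2-Q6, an MHC class Ib gene with near-identical copies, was at 73.3, 80.3 and 77.7 TPM at 4 h against 12.4, 0 and 18.4 TPM at 8 h (log2 fold change −2.94, SE 1.03, adjusted p = 0.0313). The fold change was −2.33 without the library at 0. The gene was not called without mouse 1, 2 or 3 (adjusted p = 0.102, 0.172 and 0.0836), without the 8 h library of mouse 2 (0.115) nor when the 4 h library of mouse 3 was dropped (0.0556), and its reads may be split among the copies.

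**Figure D2:**
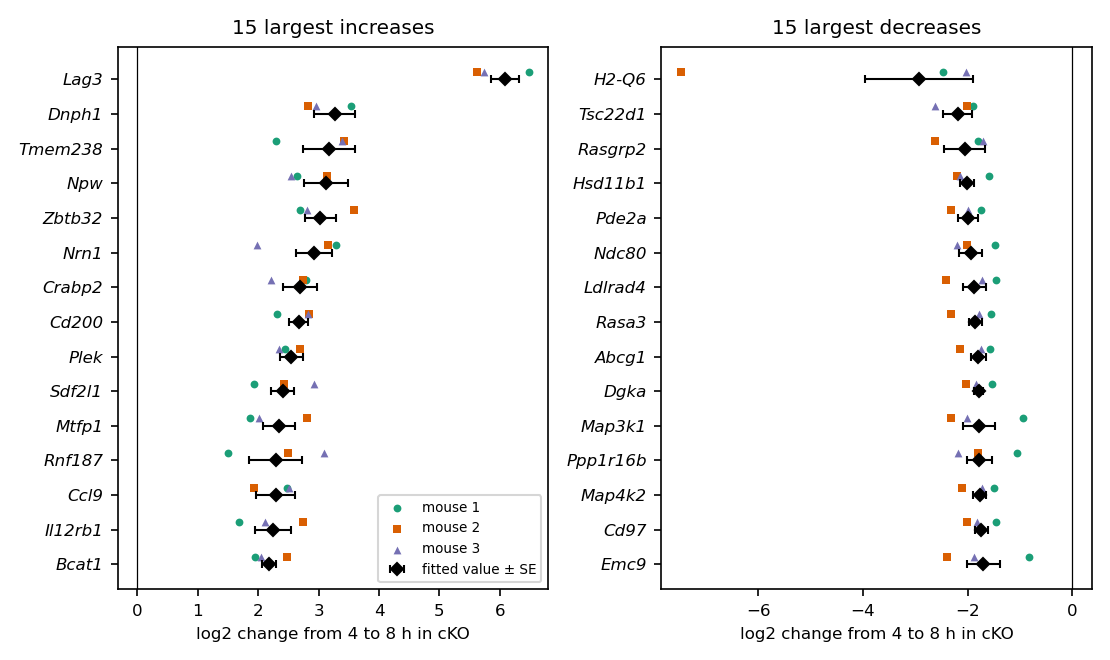
Log2 change from 4 to 8 h in cKO (horizontal axes) for the 15 largest increases and the 15 largest decreases, with the change in CPM in each mouse (coloured points) and the fitted value ± SE (black diamonds). The choice of these genes required the same direction in all mice. H2-Q6 in mouse 2, where the 8 h level is 0, is the point farthest left.

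The immediate early response was lower at 8 h than at 4 h in most of its genes. Of 25 immediate early and AP-1 genes, all tested, 17 fell and 4 rose (median −0.62, against −0.007 for all tested genes). Counts for this and the later lists are to be read beside the 20.8% higher and 19.6% lower over all tested genes. Nr4a1, an orphan nuclear receptor that reports T cell receptor signalling (chromosome 15, 101254269 to 101274795, plus strand), was at 1466, 1861 and 1875 TPM at 4 h against 644, 752 and 746 TPM at 8 h (log2 fold change −1.24, SE 0.13, adjusted p = 1.72e-07), and every 8 h library was below every 4 h library. Dusp1, a MAP kinase phosphatase, was at 36.5, 39.2 and 40.5 TPM at 4 h against 12, 13 and 12.8 TPM at 8 h (log2 fold change −1.58, SE 0.18, adjusted p = 2.2e-08). Jun, an AP-1 subunit, was at 40, 32 and 25 TPM at 4 h against 14.1, 11.5 and 10.4 TPM at 8 h (log2 fold change −1.39, SE 0.17, adjusted p = 1.84e-07). Egr1, a zinc finger factor induced by MAP kinases, was at 184, 236 and 164 TPM at 4 h against 91.3, 86.8 and 94 TPM at 8 h (log2 fold change −1.07, SE 0.16, adjusted p = 1.06e-05). Egr3 (−1.38), Nr4a3 (−1.02) and Klf6 (−0.92) fell too. Cd69, an early activation receptor that keeps T cells in tissue, was at 1679, 1998 and 1986 TPM at 4 h against 887, 950.0 and 982 TPM at 8 h (log2 fold change −0.97, SE 0.12, adjusted p = 3.46e-07).

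The 4 members that rose were Dusp2, Fosl1, Dusp5 and Atf3. Dusp2, a nuclear phosphatase of ERK (chromosome 2, 127336159 to 127338376, plus strand), was at 120.1, 107 and 93.7 TPM at 4 h against 289.7, 352 and 389.6 TPM at 8 h (log2 fold change 1.72, SE 0.34, adjusted p = 0.000605). Fosl1, the AP-1 subunit FRA-1, rose by 1.23 on the log2 scale. Without mouse 2 or without mouse 3 the list had 2 members called higher, since Dusp5 (adjusted p = 0.0584 and 0.0826) and Atf3 (0.154 and 0.107) were then not called. Atf3 was also not called without the 8 h library of mouse 2 (0.108).

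NF-kappaB, a family of factors held in the cytoplasm by inhibitors that are themselves its targets, was lower in most of its genes. Of 17 genes for subunits and feedback, 13 fell and 0 rose (median −0.58). Nfkbia, the inhibitor IkBalpha, was at 826, 927 and 910.2 TPM at 4 h against 450.4, 448 and 530.1 TPM at 8 h (log2 fold change −0.86, SE 0.084, adjusted p = 3.09e-10). Bcl3 (−0.96), Relb (−0.91), Tnip1 (−0.91) and Birc3 (−0.83) were also lower. The 4 that did not pass were Rela (0.18), Nfkb1 (0.013), Nfkbib (−0.026) and Tnip2 (0.028). RNA-binding proteins and deadenylation factors that shorten the life of cytokine mRNAs showed 10 of 14 lower and 0 higher (median −0.54), among them Zfp36l2 (−0.83), Zfp36 (−0.72) and Btg1 (−0.78). Zc3h12a, a ribonuclease of inflammatory mRNAs, was not called (log2 fold change −0.51, SE 0.21, adjusted p = 0.0517) but passed with the mouse as a block (adjusted p = 0.0409).

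The T cell receptor complex and its proximal kinases and adaptors had 17 of 20 genes lower and 0 higher (median −0.57). Cd247, the zeta chain, was at 286, 287 and 324 TPM at 4 h against 174, 144 and 164 TPM at 8 h (log2 fold change −0.85, SE 0.089, adjusted p = 1.17e-09). Cd8b1 (−0.72), Lck (−0.62), Cd3e (−0.62) and Cd8a (−0.35) fell, while Fyn (0.049), Zap70 (0.10) and Cd6 (0.18) did not pass, and with the mouse as a block and only the groups compared Cd6 did (adjusted p = 0.0216). Brakes of this signal were called in both directions, with 9 of 22 higher and 6 lower (median 0.24). Rgs1 (1.46), Rgs16 (1.22) and Rgs2 (1.01), which speed the turn-off of G proteins, and Spry1 (0.75), an inhibitor of Ras signalling, rose with Dusp2, whereas Dgka, Dusp1 and Dusp10 (−1.36) fell.

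Genes of naive and quiescent T cells fell further. Of 24 members, 17 were called lower and 3 higher (median −0.93). Tcf7 (chromosome 11, 52252371 to 52283014, minus strand) was at 263, 251 and 271 TPM at 4 h against 127, 73.6 and 108 TPM at 8 h (log2 fold change −1.32, SE 0.12, adjusted p = 9.59e-10). Lef1, its close relative, was at 201, 180.4 and 210.2 TPM at 4 h against 120.4, 80.0 and 105 TPM at 8 h (log2 fold change −0.96, SE 0.10, adjusted p = 3.42e-09). Il7r, the receptor chain for the survival cytokine IL7 (chromosome 15, 9505788 to 9530176, minus strand), was at 363, 355 and 414 TPM at 4 h against 182, 94.2 and 132 TPM at 8 h (log2 fold change −1.44, SE 0.23, adjusted p = 6.48e-05). In these genes the lowest library was that of mouse 2 at 8 h, and the times did not overlap. Other decreases were those of Tsc22d3 (−1.59), Klf3 (−1.55), Klf2 (−1.31), the factor that drives S1pr1, Txnip (−1.30), an inhibitor of glucose uptake, Satb1 (−1.24) and Pdcd4 (−1.20). The 3 that rose were Slfn2 (0.33), Cd5 (0.32) and Foxp1 (0.23). Cd5 was not called without both libraries that stood apart (adjusted p = 0.115), and Foxp1 not without mouse 1 (0.167) or mouse 2 (0.142). Bcl2, a survival factor, was at −0.33 (adjusted p = 0.142, or 0.0212 with the mouse as a block).

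Chemokine and homing receptors guide cells into and out of lymph nodes and tissues, and some are also in the naive list. The 16 tested members had 8 lower and 1 higher (median −0.76), including S1pr1 (−1.21), Itga4 (−1.24), Itgae (−1.57) and Ccr7 (−0.47). Itgal, the alpha chain of LFA-1, was the member that rose (67.3, 80.2 and 77.1 TPM at 4 h against 105, 121 and 114 TPM at 8 h, log2 fold change 0.64, SE 0.085, adjusted p = 1.54e-07). Cxcr6, a chemokine receptor of tissue-resident cells (chromosome 9, 123806475 to 123811760, plus strand), was at 268, 255 and 261 TPM at 4 h against 252, 238 and 228 TPM at 8 h and did not pass (log2 fold change −0.085, SE 0.12, adjusted p = 0.628). Its 8 h libraries lay below those of 4 h in TPM and overlapped with them in CPM.

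Most cytokine receptor genes were lower at 8 h. Of 21 receptor and STAT feedback genes 13 fell and 2 rose (median −0.65). Ifngr1, the ligand-binding chain of the interferon gamma receptor, was at 529, 417 and 558 TPM at 4 h against 195, 105 and 179 TPM at 8 h (log2 fold change −1.62, SE 0.15, adjusted p = 9.92e-09). Further decreases were called for Ifngr2 (−1.14), Socs3 (−1.13), a STAT inhibitor, Il6st (−0.97) and Il4ra (−0.94). Beside Il12rb1, Il15ra was called higher (log2 fold change 0.44, SE 0.18, adjusted p = 0.0423), but not without mouse 2 (0.367), mouse 3 (0.0733), the 8 h library of mouse 2 (0.0911) or the 4 h library of mouse 3 (0.0534). Il2ra, the alpha chain of the IL2 receptor, was at 99.6, 124 and 125 TPM at 4 h against 97, 105 and 104 TPM at 8 h with overlapping times (log2 fold change −0.14, SE 0.10, adjusted p = 0.281).

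Secreted factors were called in both directions. Of the 9 tested cytokines 3 rose and 2 fell. Il2, the main growth factor of activated T cells (chromosome 3, 37120523 to 37125959, minus strand), was at 1091, 928 and 947 TPM at 4 h against 2409, 1841 and 1685 TPM at 8 h (log2 fold change 1.04, SE 0.20, adjusted p = 0.000655), and the lowest 8 h library was above the highest 4 h library. Il3, a haematopoietic growth factor, was at 132, 64.2 and 87.8 TPM at 4 h against 490.1, 327 and 337 TPM at 8 h (log2 fold change 2.06, SE 0.27, adjusted p = 1.78e-05). Lta, lymphotoxin alpha, rose by 0.49 on the log2 scale. Ifng was at 521, 448 and 414 TPM at 4 h against 533, 429.5 and 462 TPM at 8 h, with overlapping times (log2 fold change 0.081, SE 0.19, adjusted p = 0.77). The calls for Tnf (log2 fold change −0.30, SE 0.11, adjusted p = 0.0348) and Ltb (log2 fold change −0.44, SE 0.15, adjusted p = 0.0267) rested on few libraries. Tnf was not called without mouse 1, 2 or 3 (adjusted p = 0.0996, 0.264 and 0.0524) or without the 8 h library of mouse 2 (0.076), and Ltb was not called without mouse 2 (0.243), without its 8 h library (0.0938), without WT mouse 4 or 5 (0.0674 and 0.0664) or with the mouse as a block (0.0597).

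Among 7 tested chemokines 3 rose and 1 fell. Ccl3 was at 4503, 4575 and 4275 TPM at 4 h against 8425, 8277 and 7605 TPM at 8 h (log2 fold change 0.91, SE 0.14, adjusted p = 9.82e-05) and, with Ccl9, was called higher. Xcl1 rose as well (10531, 11212 and 10730.4 TPM at 4 h against 16631, 16020.4 and 14212 TPM at 8 h, log2 fold change 0.57, SE 0.14, adjusted p = 0.0032) but was not called without both libraries that stood apart (adjusted p = 0.0612). Ccl3 and Xcl1, which attract myeloid and dendritic cells, stood at high levels at both times. Ccl5 was at 329, 199 and 134 TPM at 4 h against 225, 95.4 and 87.2 TPM at 8 h and was not called (adjusted p = 0.228), but passed with the mouse as a block (0.00244) and without mouse 1 (0.03), which was the mouse with the highest level at 8 h. Cxcl10, an interferon-induced chemokine, was the member called lower (log2 fold change −0.97, SE 0.30, adjusted p = 0.0159), but not without mouse 3 (adjusted p = 0.0553) or the 8 h library of mouse 2 (0.0751), nor with DESeq2 (0.112).

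Cytotoxic granule genes and death ligands were called in both directions. Of 11 tested, 6 rose and 3 fell. Prf1, perforin, the pore former (chromosome 10, 61297833 to 61304680, plus strand), was at 40.4, 38.2 and 36.3 TPM at 4 h against 93.8, 82.4 and 59.6 TPM at 8 h (log2 fold change 1.08, SE 0.20, adjusted p = 0.000169). Lamp1, a lysosome and granule membrane protein, was at 20.4, 16.1 and 16 TPM at 4 h against 50.2, 53.1 and 58.5 TPM at 8 h (log2 fold change 1.66, SE 0.29, adjusted p = 0.000167). Nkg7, a granule membrane protein, rose by 0.70 on the log2 scale. Ctsw (−0.96), a cathepsin, and Srgn (−0.40), the proteoglycan of granules, were lower. Gzmb, granzyme B, was at 453, 436 and 497 TPM at 4 h against 548, 739 and 578 TPM at 8 h (log2 fold change 0.48, SE 0.16, adjusted p = 0.0252), and this call was lost without mouse 2 (adjusted p = 0.275) and without its 8 h library (0.183). Fasl, a death ligand (log2 fold change 0.71, SE 0.23, adjusted p = 0.0126), was not called without mouse 1 (0.173) or mouse 2 (0.103).

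Inhibitory receptors rose where they changed. Of 10 tested, 6 were called higher and 0 lower, with a median of 0.86. Beside Lag3 and Cd200, Pdcd1, the receptor PD-1, was at 70.8, 87.2 and 85.2 TPM at 4 h against 149, 174 and 156 TPM at 8 h (log2 fold change 1.02, SE 0.17, adjusted p = 4.97e-05). Pdcd1lg2, a ligand of PD-1, changed by 0.93 and Btla by 0.59. Tigit (log2 fold change 0.80, SE 0.32, adjusted p = 0.0446) was not called without mouse 2 (adjusted p = 0.33), mouse 3 (0.196), the 8 h library of mouse 2 (0.107) or the 4 h library of mouse 3 (0.106), nor with the mouse as a block (0.0729). Values for Ctla4 (0.52), Havcr2 (0.93), Cd274 (−0.60) and Cd160 (0.014) did not pass. Cd274, the ligand PD-L1, was called lower without mouse 2 (adjusted p = 0.00342) and with the mouse as a block and only the groups compared (4.28e-05).

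Of 18 co-stimulatory receptors and ligands 4 were called higher and 4 lower (median −0.083), shares near those over all tested genes (20.8% and 19.6%). Tnfrsf4, the receptor OX40, was at 33.1, 27.7 and 28.5 TPM at 4 h against 89.9, 93.8 and 67.1 TPM at 8 h (log2 fold change 1.54, SE 0.15, adjusted p = 2.09e-09). Tnfsf11, the ligand RANKL, was at 10.1, 10.7 and 12.5 TPM at 4 h against 23.2, 31.1 and 44 TPM at 8 h (log2 fold change 1.60, SE 0.34, adjusted p = 0.00115). Icos, a relative of Cd28, rose by 0.60 on the log2 scale. Cd40lg, the ligand of CD40, was at 58.9, 58.6 and 89 TPM at 4 h against 17.8, 21.7 and 22.2 TPM at 8 h (log2 fold change −1.69, SE 0.22, adjusted p = 3.65e-07). Tnfsf9, the ligand of 4-1BB, changed by −1.30. Cd28 itself (chromosome 1, 60716800 to 60773359, plus strand) was at 24.1, 25.2 and 28.2 TPM at 4 h against 21.5, 23.9 and 25.4 TPM at 8 h with overlapping times (log2 fold change −0.091, SE 0.18, adjusted p = 0.723).

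Among lineage factors, 7 of 20 tested genes fell and 2 rose. The share called in either direction (45%) was near the 40.4% over all tested genes, with more of the calls lower than higher. Without mouse 2, 3 were called lower. Stat3, a transducer of IL6 family and IL21 signals, was at 153, 162 and 182 TPM at 4 h against 79.8, 76 and 94.6 TPM at 8 h (log2 fold change −0.95, SE 0.092, adjusted p = 2.66e-10). Rora (−1.44), a nuclear receptor, was also lower but not called without both libraries that stood apart (adjusted p = 0.0884). Irf4, a factor whose level follows receptor signal strength, was at 284, 399.8 and 431 TPM at 4 h against 219.7, 249 and 288 TPM at 8 h and was not called (log2 fold change −0.52, SE 0.20, adjusted p = 0.0522), but passed with the mouse as a block (adjusted p = 0.0398) and without mouse 1 (0.000496). Tbx21, the effector factor T-bet, was at 107, 96.6 and 39 TPM at 4 h against 77.4, 90.6 and 98.9 TPM at 8 h, where the 4 h library of mouse 3 was the lowest, and was not called (log2 fold change 0.16, SE 0.30, adjusted p = 0.703). Eomes (log2 fold change 1.18, SE 0.44, adjusted p = 0.0348) was not called without mouse 2 (0.0898), mouse 3 (0.126) or any of the 3 WT mice (0.0585, 0.068 and 0.0626).

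Ribosomes are assembled in the nucleolus. Of 28 ribosome biogenesis genes 24 rose and 0 fell, with a median of 0.43. Fbl, the methyltransferase that modifies ribosomal RNA, was at 95.8, 86.4 and 90.0 TPM at 4 h against 186, 213 and 230.4 TPM at 8 h (log2 fold change 1.25, SE 0.12, adjusted p = 7.3e-10). Gar1, a subunit of the pseudouridine-forming particles, was at 14.3, 13.8 and 11.8 TPM at 4 h against 27.8, 32.6 and 30.9 TPM at 8 h (log2 fold change 1.23, SE 0.18, adjusted p = 7.03e-07). Npm1 (0.66), Dkc1 (0.62), Nop58 (0.58) and Ncl (0.53) rose by less. Rrs1, an assembly factor of the large subunit, was at 107, 86.7 and 37.5 TPM at 4 h against 177, 218 and 210.0 TPM at 8 h (log2 fold change 1.41, SE 0.32, adjusted p = 0.0018), and its 4 h library of mouse 3 was the lowest. With the mouse as a block and only the groups compared, Rrs1 was not called (adjusted p = 0.14).

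Translation factors rose with them, 15 of 19, with 0 lower (median 0.41). Eif4ebp1, a repressor of cap-dependent translation that mTORC1 inactivates, had the largest value, at 29.8, 25.6 and 21.5 TPM at 4 h against 102, 117 and 98.9 TPM at 8 h (log2 fold change 2.08, SE 0.15, adjusted p = 5.12e-13). Eif5a (0.67), Eif3b (0.68) and Eif2s2 (0.57) rose by less. Ribosomal protein genes had 1 of 24 higher and 4 lower, and a range of the others from −0.27 (Rps19) to 0.092 (Rpl18). The number of lower calls was 1 without mouse 1 and 0 without mouse 2, and they numbered 7 with a filter of 5 CPM, 9 without Rn45s, 14 with the mouse as a block and only the groups compared, and 17 with limma on log2(TPM + 1). Rps2, which has many processed copies in the genome, was at 1718, 1166 and 567 TPM at 4 h against 3522, 4163 and 4165 TPM at 8 h (log2 fold change 1.81, SE 0.40, adjusted p = 0.00159), apart from the rest of its list. With the mouse as a block and only the groups compared Rps2 was not called (adjusted p = 0.112).

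Aminoacyl-tRNA synthetases charge tRNAs with amino acids. Of 20 cytosolic aminoacyl-tRNA synthetases 18 were called higher and 0 lower (median 0.54). Aars was at 32.2, 24.2 and 24.1 TPM at 4 h against 47.3, 55.7 and 53.4 TPM at 8 h (log2 fold change 1.00, SE 0.12, adjusted p = 1.5e-08). Yars rose by 0.87 and Gars by 0.66 on the log2 scale, and Farsa (0.14) and Qars (−0.039) did not pass. These genes are in part targets of ATF4, the transcription factor of the integrated stress response, which is translated when amino acids are short and drives amino acid transporters and synthetic enzymes.

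Of 24 genes of amino acid transport and the integrated stress response, 16 rose and 1 fell (median 0.76). Slc1a4, a carrier of alanine and serine (chromosome 11, 20302180 to 20332713, minus strand), was at 0.77, 0.64 and 1.24 TPM at 4 h against 6.19, 9.43 and 6.55 TPM at 8 h (log2 fold change 3.13, SE 0.26, adjusted p = 1.27e-11). Asns, asparagine synthetase, was at 2, 0.24 and 1.01 TPM at 4 h against 3.75, 5.43 and 5.85 TPM at 8 h (log2 fold change 2.23, SE 0.33, adjusted p = 2.57e-06). Pycr1, the last step of proline synthesis, was at 0.46, 0.55 and 0.82 TPM at 4 h against 3.02, 3.14 and 3.9 TPM at 8 h (log2 fold change 2.45, SE 0.37, adjusted p = 1.95e-06). The serine pathway rose at each of its steps, with Phgdh at 89.4, 84.2 and 83 TPM at 4 h against 301, 369.8 and 317 TPM at 8 h (log2 fold change 1.99, SE 0.10, adjusted p = 3.42e-17), Psat1 at 1.56 and Psph at 1.36. In all of these genes the times did not overlap. Slc7a5 (0.71) and Slc3a2 (0.32), which together carry large neutral amino acids, and Atf4 itself (0.41) rose by less, and Slc3a2 was not called without mouse 2 (adjusted p = 0.0951) or its 8 h library (0.0996). Chac1, a glutathione-degrading enzyme (log2 fold change 1.77, SE 0.54, adjusted p = 0.00944), was not called without mouse 2 (adjusted p = 0.247) or its 8 h library (0.074). Ddit3, the stress factor CHOP, was at −0.47 and not called (adjusted p = 0.0592, or 0.046 with the mouse as a block and only the groups compared).

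The amino acid response element TGATGCAA, a motif bound by ATF4, was looked for on both strands of RefSeq promoters (GRCm38.p6, 250 bases before to 50 after a gene's start). It stood in a promoter of 4 of 21 genes matched for the transport and stress list, namely Chac1, Pycr1, Slc1a4 and Slc7a11. For the synthetases it stood in 4 of 12 matched genes, namely Aars, Iars, Tars and Yars. Among 27025 genes with a promoter it stood in 1.03%, and among 8546 tested genes with one in 0.807%. It stood in 1 of 215 matched genes called at least 2-fold higher with at least 10 TPM (0.465%) and in 3 of 197 called at least 2-fold lower (1.52%). The stretches around it are shown for 3 genes whose RNA was called higher, 5′ to 3′ on the gene's strand, with the element or its reverse complement in capitals.
Pycr1, chr11:120643804-120643891, minus strand: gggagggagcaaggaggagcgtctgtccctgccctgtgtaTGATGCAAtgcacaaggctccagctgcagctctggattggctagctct
Aars, chr8:111033690-111033777, plus strand: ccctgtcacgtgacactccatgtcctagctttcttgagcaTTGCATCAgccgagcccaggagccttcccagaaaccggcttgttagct
Chac1, chr2:119351009-119351096, plus strand: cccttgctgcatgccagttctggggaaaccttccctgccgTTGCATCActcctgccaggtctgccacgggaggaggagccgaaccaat
The element ends 96, 105 and 186 bases before the RefSeq starts of Pycr1, Aars and Chac1. By GENCODE M21 Aars starts at 111033144, so there its stretch lies inside the gene. A match of letters is a description of the promoter and not a test of binding. Both lists were made by function, so their shares with the element describe the lists and not the change from 4 to 8 h.

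Glycolysis and its feeding transporters rose in most members. Of 20 genes 13 rose and 2 fell (median 0.60). Tpi1, triose phosphate isomerase, was at 76.2, 74.2 and 62 TPM at 4 h against 211, 257 and 189 TPM at 8 h (log2 fold change 1.67, SE 0.13, adjusted p = 9.65e-11). Gapdh was at 1651, 1568 and 1456 TPM at 4 h against 2909, 3236 and 2816 TPM at 8 h (log2 fold change 0.98, SE 0.083, adjusted p = 1.46e-11). Pfkp (0.99), Eno1 (0.89), Pkm (0.89), Aldoa (0.73) and Ldha (0.72) rose in the same range. The 2 that fell were Hk1 (log2 fold change −0.78, SE 0.19, adjusted p = 0.0014), the hexokinase of resting cells, and Slc2a3 (log2 fold change −0.41, SE 0.14, adjusted p = 0.0144), a glucose transporter, and without mouse 2 0 members were called lower (adjusted p = 0.0803 for Hk1 and 0.121 for Slc2a3). Slc2a3 was also not called without mouse 3 (0.0664). Slc2a1, the glucose transporter induced on activation, rose (log2 fold change 0.49, SE 0.12, adjusted p = 0.00121) but was not called without mouse 2 (adjusted p = 0.0614).

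Of 25 genes of the mitochondrial ribosome, import and folding 20 rose and 1 fell (median 0.57), with the chaperonin Hspd1 at 468, 481 and 456 TPM at 4 h against 882, 1009.6 and 928 TPM at 8 h (log2 fold change 1.05, SE 0.12, adjusted p = 7.24e-08) and its partner Hspe1 at 0.92. Tomm40, the import channel, was at 221, 201 and 81.5 TPM at 4 h against 355, 419 and 399 TPM at 8 h (log2 fold change 1.25, SE 0.30, adjusted p = 0.00306), again with the 4 h library of mouse 3 lowest, and was not called with the mouse as a block and only the groups compared (adjusted p = 0.151). Respiratory chain subunits had 17 of 22 higher and 0 lower (median 0.37), among them Cyc1 (0.69) and Cycs (0.66), and 11 were called higher without mouse 2 or without its 8 h library. For the TCA cycle and one-carbon units 14 of 21 rose and 0 fell, led by the folate enzymes Mthfd1l (0.97), Shmt2 (0.89), Mthfd2 (0.87) and Mthfd1 (0.85). Without both libraries that stood apart 9 of them were called higher.

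Nucleotide synthesis rose in 18 of 23 genes and fell in 0 (median 0.53). Nme1, a nucleoside diphosphate kinase, was at 256, 263 and 232 TPM at 4 h against 548, 695 and 577 TPM at 8 h (log2 fold change 1.32, SE 0.11, adjusted p = 2.4e-11). Cad, which starts pyrimidine synthesis, was at 34.9, 35.9 and 36.1 TPM at 4 h against 60.7, 67.3 and 66.7 TPM at 8 h (log2 fold change 0.91, SE 0.083, adjusted p = 6.77e-11). Gart (0.70) and Impdh2 (0.62) of the purine pathway rose by less, and Tyms (0.56), Rrm2 (0.49) and Tk1 (−0.12), enzymes of deoxynucleotide supply in S phase, were not called. Tyms passed without the 8 h library of mouse 2 (adjusted p = 0.0207) and with the mouse as a block and only the groups compared (0.00786). Sterol and fatty acid synthesis split into 8 of 23 higher, such as Lss (1.16) and Mvk (1.16, not called without mouse 1, adjusted p = 0.0526), and 4 lower, such as Scd2 (−1.44). Without both libraries that stood apart 5 were called higher, and without mouse 2 2 were called lower.

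RNAs of most endoplasmic reticulum (ER) folding genes rose. When unfolded proteins build up in the ER, the sensors ATF6 and IRE1, with its target XBP1, raise chaperone genes through an ER stress response element. Of 24 ER folding genes 17 were called higher and 1 lower (median 0.46), and 11 were called higher without both libraries that stood apart. Sdf2l1 was at 18.7, 16.7 and 10.3 TPM at 4 h against 70.7, 88.1 and 79.4 TPM at 8 h (log2 fold change 2.41, SE 0.19, adjusted p = 6.02e-11). Creld2, an ER chaperone, was at 70.9, 52.9 and 54.1 TPM at 4 h against 104, 138 and 109.8 TPM at 8 h (log2 fold change 1.03, SE 0.13, adjusted p = 8.04e-08). Hsp90b1, the ER HSP90, was at 255, 263 and 276 TPM at 4 h against 427, 474 and 437 TPM at 8 h (log2 fold change 0.80, SE 0.088, adjusted p = 4.15e-09). Hspa5, the chaperone BiP, rose by 0.51 and Pdia6, a disulfide isomerase, by 0.67 on the log2 scale. Dnajb11, a BiP cofactor, was at 85.5, 75.4 and 23.8 TPM at 4 h against 147, 175 and 163 TPM at 8 h (log2 fold change 1.41, SE 0.34, adjusted p = 0.00298), and was not called with the mouse as a block and only the groups compared (adjusted p = 0.165). Xbp1 was at 54.6, 49.5 and 17.6 TPM at 4 h against 73.6, 95.8 and 76.6 TPM at 8 h (log2 fold change 1.04, SE 0.31, adjusted p = 0.0135), and was not called without mouse 2 (0.0688), without its 8 h library (0.0683) or with the mouse as a block and only the groups compared (0.152).

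The element was searched on both strands as CCAAT and CCACG with 9 bases of any kind between them. It stood in a promoter of 8 of 19 matched genes of the ER list (42.1%). Among 27025 genes with a promoter it stood in 0.137%, and among 8546 tested genes with one in 0.176%. It stood in 1 of 215 matched genes called at least 2-fold higher with at least 10 TPM (0.465%) and in 0 of 197 called at least 2-fold lower. The ER list was made by function and holds known genes of this response. Its share with the element describes the list and not the change from 4 to 8 h. The 8 were Calr, Canx, Creld2, Dnajc3, Hsp90b1, Hspa5, Pdia6 and Syvn1, of which Calr (0.21, adjusted p = 0.136) and Syvn1 (−0.083) were not called. With the mouse as a block Calr passed (0.0349), and Dnajc3, whose adjusted p was 0.0495, was not called without mouse 1, 2 or 3 (0.276, 0.0919 and 0.108). Stretches of 4 called genes show it, with its fixed letters or their reverse complement in capitals and the gene's strand read 5′ to 3′ (GRCm38.p6).
Creld2, chr15:88819480-88819578, plus strand: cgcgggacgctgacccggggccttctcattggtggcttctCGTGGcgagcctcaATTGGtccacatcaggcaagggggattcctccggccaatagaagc
Hspa5, chr2:34771985-34772083, plus strand: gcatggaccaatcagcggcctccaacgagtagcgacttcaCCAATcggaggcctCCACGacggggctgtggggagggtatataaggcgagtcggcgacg
Hsp90b1, chr10:86705598-86705694, minus strand: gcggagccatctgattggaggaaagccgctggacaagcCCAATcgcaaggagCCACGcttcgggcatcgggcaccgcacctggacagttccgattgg
Pdia6, chr12:17266451-17266549, plus strand: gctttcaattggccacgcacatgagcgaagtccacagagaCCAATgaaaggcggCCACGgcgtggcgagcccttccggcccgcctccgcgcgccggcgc
In these 4 genes the element ends between 47 and 194 bases before the RefSeq start. By GENCODE M21 Hspa5 starts at 34771970, so there its stretch lies inside the gene.

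Cytosolic chaperones rose in 16 of 23 genes and fell in 0 (median 0.56), including Hsp90aa1 (0.66) and the subunits Cct7 (0.65) and Tcp1 (0.61) of the ring-shaped TRiC complex, while Dnajb1 (−0.14) was not called. The proteasome rose in 19 of 24 subunits. Psma1 (0.81), Psmd1 (0.76) and Psmb5 (0.64), a constitutive catalytic subunit, were among them. The 2 that fell were the interferon-induced catalytic subunits Psmb9 (259, 255 and 248 TPM at 4 h against 184, 131 and 156 TPM at 8 h, log2 fold change −0.66, SE 0.11, adjusted p = 1.18e-05) and Psmb8 (585, 553 and 472 TPM at 4 h against 476, 348 and 396 TPM at 8 h, log2 fold change −0.37, SE 0.10, adjusted p = 0.00396), which replace constitutive ones in the immunoproteasome. Psmb8 was not called without mouse 2 (adjusted p = 0.111). Psmb10, a further interferon-induced catalytic subunit of the list, and the regulator subunits Psme1 and Psme2 were not called lower. Interferon-stimulated genes had 8 of 23 lower and 1 higher (median −0.54). The share called in either direction (39.1%) was near the 40.4% over all tested genes. Most of these calls were lower, whereas over all tested genes 20.8% were higher and 19.6% lower. Ddx58 (−1.28), Stat2 (−1) and Irf9 (−0.96) were among those that fell. Splicing factors had 16 of 24 higher, such as Hnrnpa1 (0.81) and Srsf3 (0.80).

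Cell cycle genes were followed as separate lists. Myc, a factor that drives growth and ribosome synthesis, was at 1042, 1192 and 1185 TPM at 4 h against 836, 956 and 983 TPM at 8 h (log2 fold change −0.26, SE 0.093, adjusted p = 0.0243). The times did not overlap in TPM and did in CPM. This decrease was not called without mouse 1, 2 or 3 (adjusted p = 0.092, 0.0843 and 0.0733) or without the 4 h library of mouse 3 (0.0632). Mxd1, which opposes MYC for its partner MAX, was at 12.7, 13.6 and 12.2 TPM at 4 h against 3.34, 3.67 and 5.14 TPM at 8 h (log2 fold change −1.64, SE 0.17, adjusted p = 1.49e-09). Of 20 G1 genes 6 rose and 7 fell, with 3 called lower without mouse 2 and 3 without mouse 3, and 4 without the 8 h library of mouse 2 and 4 without the 4 h library of mouse 3. The kinases Cdk6 (14.7, 14.5 and 14.1 TPM at 4 h against 27.4, 26.1 and 34.4 TPM at 8 h, log2 fold change 1.05, SE 0.16, adjusted p = 2.89e-06) and Cdk4 (0.76) and cyclin E1 (Ccne1, 0.90) rose. Cdkn1b, the inhibitor p27, was at 19.8, 21.6 and 26.5 TPM at 4 h against 9.6, 6.91 and 11 TPM at 8 h (log2 fold change −1.27, SE 0.16, adjusted p = 4.33e-08). Rbl2, the pocket protein of quiescence, was at 12.8, 13.2 and 15.7 TPM at 4 h against 6.71, 4.74 and 5.1 TPM at 8 h (log2 fold change −1.29, SE 0.19, adjusted p = 2.58e-06).

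DNA replication genes stood at low levels and rose in 14 of 26 members, with 3 lower (median 0.46). Without mouse 2, 9 were called higher. Orc1, the largest subunit of the origin recognition complex, was at 1.17, 0.46 and 0.63 TPM at 4 h against 3.11, 2.44 and 1.56 TPM at 8 h (log2 fold change 1.70, SE 0.32, adjusted p = 5.29e-05). Gins2, a subunit of the replicative helicase, was at 4.41, 3.36 and 2.84 TPM at 4 h against 7.85, 8.34 and 8.6 TPM at 8 h (log2 fold change 1.25, SE 0.29, adjusted p = 0.000785). Mcm2 (0.81), Pcna (0.53) and Mcm5 (0.52) rose by less, whereas Lig1 (−0.66), Cdt1 (−0.43) and Gins3 (−0.85) fell. Of 24 mitosis genes 1 was called higher and 2 lower, and Mki67 (0.5, 0.16 and 0.11 TPM at 4 h against 0.43, 0.15 and 0.16 TPM at 8 h, log2 fold change −0.014, SE 0.57, adjusted p = 0.988) and Top2a (−0.19) were not called.

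The E2F motif TTTCGCGC, searched on both strands, stood in a promoter of 7 of 22 matched genes of the replication list (31.8%). Among 27025 genes with a promoter it stood in 0.374%, and among 8546 tested genes with one in 0.842%. Among matched genes called at least 2-fold higher with at least 10 TPM it stood in 2 of 215 (0.93%), and in 1 of 197 called at least 2-fold lower (0.508%). The replication list was also made by function, so its share describes the list and not the change from 4 to 8 h. The 7 were Lig1, Mcm5, Mcm6, Mcm7, Orc1, Rfc3 and Uhrf1, and so include Lig1, which fell, and Rfc3 (0.31), which was not called (it passed without the 4 h library of mouse 3, adjusted p = 0.0343). The motif is shown in capitals, in either orientation, for Orc1 and Mcm5, which rose, 5′ to 3′ on the gene's strand (GRCm38.p6).
Orc1, chr4:108579387-108579453, plus strand: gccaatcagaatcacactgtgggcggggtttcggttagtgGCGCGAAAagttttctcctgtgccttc
Mcm5, chr8:75109316-75109403, plus strand: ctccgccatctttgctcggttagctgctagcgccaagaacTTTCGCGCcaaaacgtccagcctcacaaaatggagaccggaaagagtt
The motif ends 20 and 146 bases before the RefSeq starts of Orc1 and Mcm5. By GENCODE M21 Orc1 starts at 108579423, so there its motif lies inside the gene. A second E2F form (TTTGGCGC) stood in 5 of 22 matched replication genes, against 1.19% of tested genes. E-box, AP-1, NF-kappaB and CRE motifs were also searched, and part of these counts is given. AP-1 stood in 0 of 20 immediate early genes (4.34% of tested genes). NF-kappaB stood in 2 of 14 genes of its list (0.222%). The E-box stood in 6 of 23 ribosome biogenesis genes (12.1%).

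Survival genes of the BCL2 family and apoptosis had 4 of 20 higher and 7 lower, with 2 called higher without mouse 1, without mouse 2 or without its 8 h library. Bax rose (0.68), Fas, the death receptor, fell (−1.04), and so did Pmaip1, which encodes NOXA (−1.13). Of 24 actin and motility genes 14 fell and 1 rose (median −0.49). Ezr, ezrin, which ties the membrane to actin, was at 203, 179.7 and 187 TPM at 4 h against 86.2, 62.2 and 70.0 TPM at 8 h (log2 fold change −1.34, SE 0.10, adjusted p = 3.04e-13). Actn1 (−1.23), Myh9 (−1.01) and Msn (−0.92) fell too. Autophagy and lysosome genes had 8 of 23 lower and 4 higher, with decreases of the initiators Ulk1 (−1.19), Atg14 (−1.18) and Atg9a (−1.64) and increases of Atg3 (1.57), Gabarapl1 (1.30) and Lamp1.

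**Figure D3:**
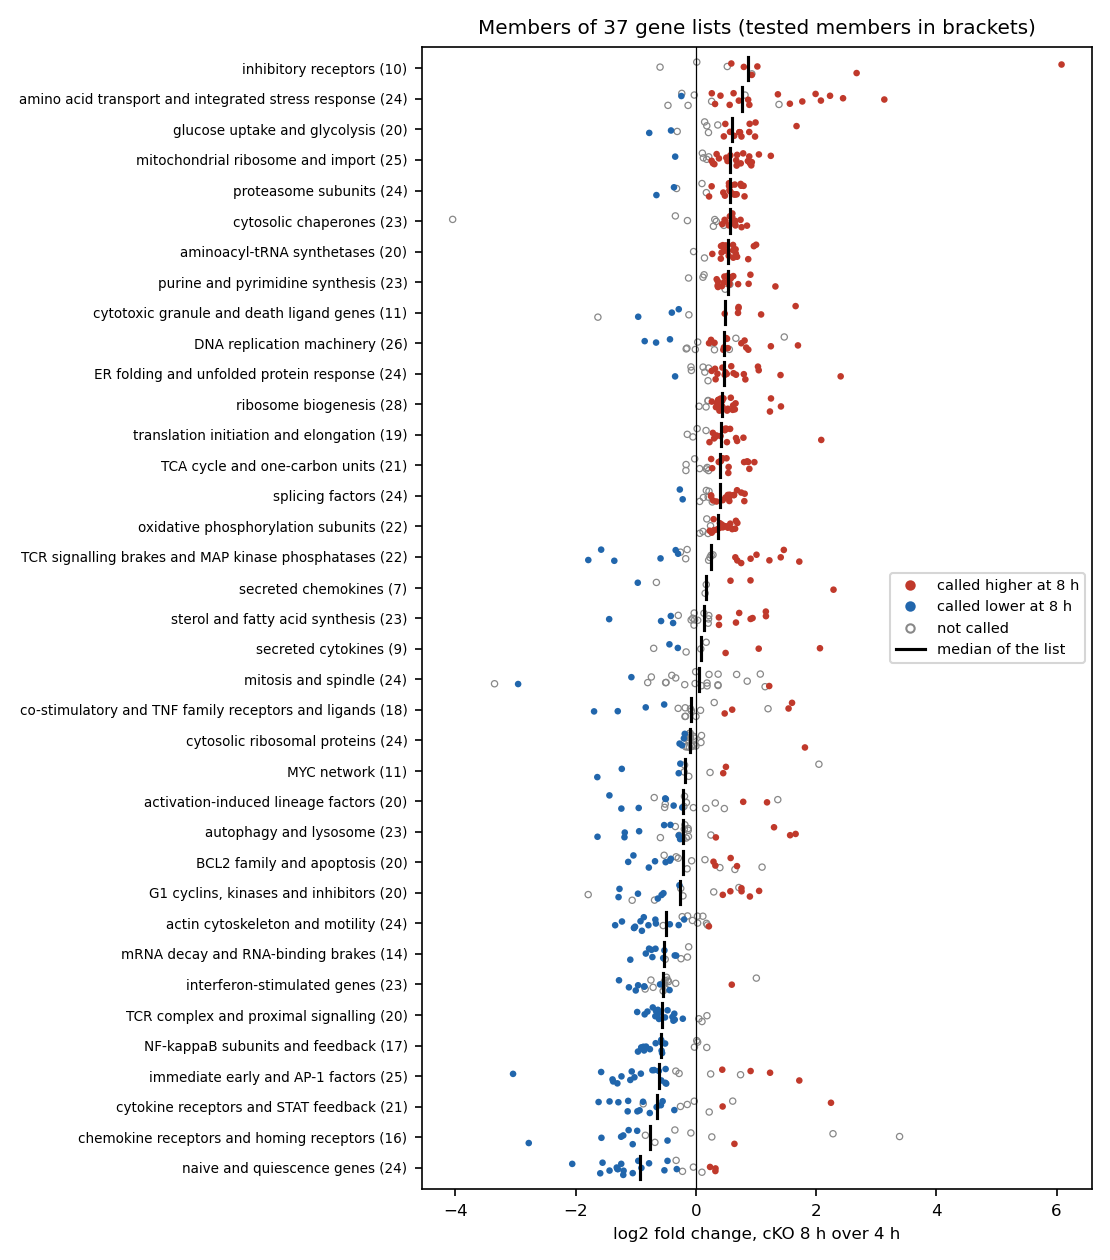
Log2 fold change of 8 h over 4 h in cKO (horizontal axis) for each tested member of the 37 gene lists, which are ordered by their median (black bar), with called genes filled and others open. Medians run from −0.93 for the naive and quiescence genes to 0.86 for the inhibitory receptors, and the list of ribosome biogenesis has no filled point below 0.

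The change between 4 and 8 h was set beside the intervals before and after it in cKO for some of these genes. The 3 intervals share libraries, so their values are given side by side only. Lag3 differed by 2.41 on the log2 scale between 0 and 4 h, by 6.08 between 4 and 8 h and by 0.74 between 8 and 24 h. Nr4a1 stood at 13.8 TPM at 0 h (mean of 3 mice), 1734 at 4 h, 714 at 8 h and 144 at 24 h, and Il2 was listed at 0 at 0 h and at means of 989, 1978 and 1554 TPM at the later times. Phgdh and Tpi1 were lower at 4 h than at 0 h before they rose, with means of 186 and 85.5 TPM for Phgdh and 88.7 and 70.8 TPM for Tpi1 (log2 fold changes −1.04, adjusted p = 2.66e-11, and −0.25, adjusted p = 0.113). Tcf7 had means of 695, 262, 103 and 37.2 TPM at the 4 times. Orc1 reached a mean of 33.1 TPM at 24 h from 2.37 at 8 h, and Ndc80, which was lower at 8 h than at 4 h, was at 37.4 TPM at 24 h.

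**Figure D4:**
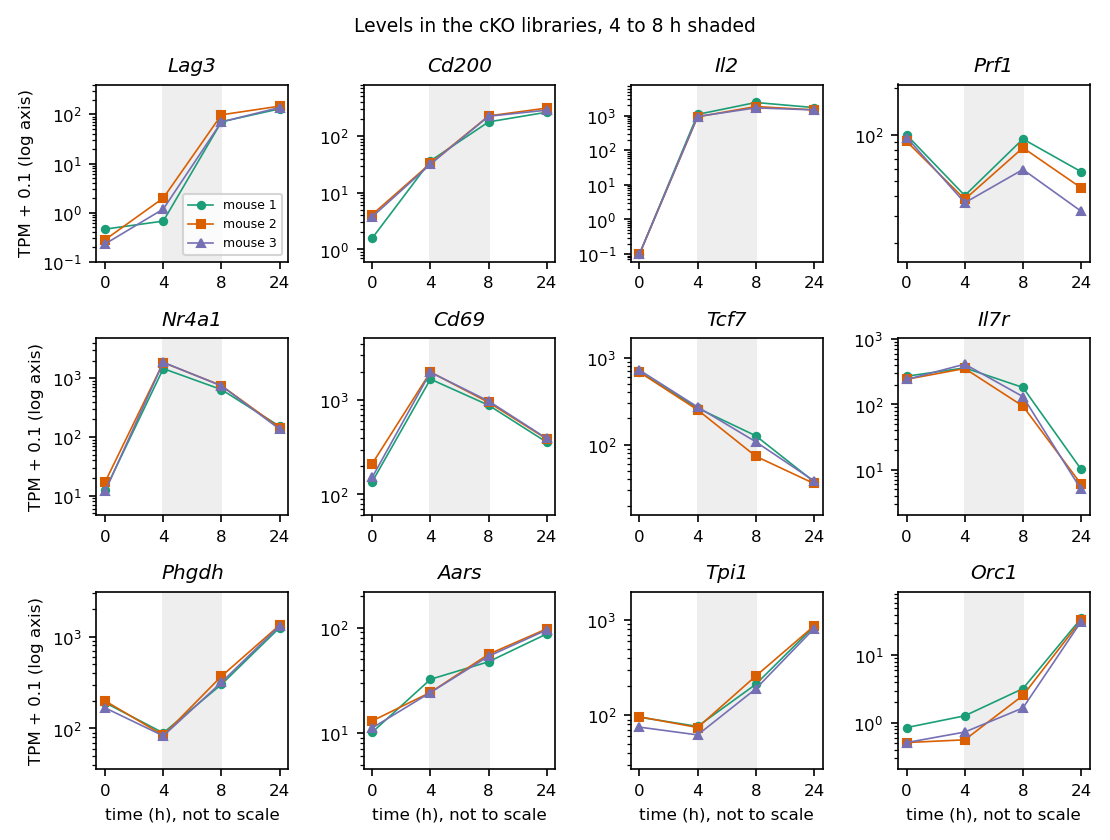
Levels of 12 genes in cKO mice 1, 2 and 3 (TPM plus 0.1, logarithmic vertical axes) at 0, 4, 8 and 24 h, drawn at equal steps, with the interval from 4 to 8 h shaded. Lag3, Cd200, Tpi1 and Phgdh climb across the shaded interval, Nr4a1, Cd69, Tcf7 and Il7r fall across it, and the lines of the 3 mice lie close together.

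In WT cells, which share no library with cKO, the same interval gave a similar number of calls. There 4773 genes (41.6%) changed, 2509 higher (21.9%) and 2264 lower (19.7%). Genes called higher in both genotypes numbered 1835, which is 76.8% of those called higher in cKO and 73.1% of those in WT, and genes called lower in both numbered 1668 (74.3% and 73.7%). In WT at least 2-fold increases numbered 435 (3.79%) and decreases 629 (5.48%). Such increases were shared by 265 genes (48.7% of those in cKO, 60.9% of those in WT) and decreases by 302 (58.1% and 48.0%). Of 3511 genes called in both, 8 had opposite signs. Lag3 (5.99 in WT), Cd200 (3.02), Zbtb32 (3.75), Bcat1 (2.40), Tcf7 (−1.34), Nr4a1 (−1.26), Dgka (−1.71), Il2 (1.19) and Phgdh (1.69) had WT log2 fold changes with the direction seen in cKO. Cxcr6 had 0.74 in WT and −0.085 in cKO, and the test of the difference gave an adjusted p of 0.0919, or 0.0371 with the mouse as a block, where it was called. It was not called with the mouse as a block and only the groups compared (0.0575) or with the block and a correction for GC content (0.102). Of 20 alternatives 5 called it.

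The difference of the 2 changes was tested for every gene. It was called for 7 of 11470 genes (0.061%), with 976 at an unadjusted p under 0.05. In all 7 the change was more positive in cKO, and 4 differed at least 2-fold (0.0349%). Irak1bp1, a protein that binds the kinase IRAK1 (chromosome 9, 82829540 to 82847687, plus strand), was at 1.02, 0.37 and 0.46 TPM at 4 h against 3.99, 3.28 and 4.03 TPM at 8 h in cKO. In WT mice 4, 5 and 6 it was at 2.02, 2.26 and 2.83 TPM at 4 h against 2.09, 2.3 and 1.21 TPM at 8 h, so the cKO libraries were the lower ones at 4 h and the higher ones at 8 h. Fbl was at 107, 122 and 151 TPM at 4 h against 215, 139 and 125 TPM at 8 h in WT, a log2 fold change of 0.37 against 1.25 in cKO (adjusted p of the difference = 0.0268, or 0.109 with the mouse as a block). Fance, of the Fanconi anaemia core complex (1.32 in cKO, −0.54 in WT), Hgsnat, a lysosomal acetyltransferase (1.25 and −0.40), the factors Deaf1 (0.80 and −0.38) and Tgif2 (0.52 and −0.48) and the valine-tRNA synthetase Vars (0.96 and 0.19) were the others. With the mouse as a block the difference in Fance was not called either (adjusted p = 0.0794). None of these calls held in every alternative. That is, 0 genes were called without cKO mouse 2 or 3, without WT mouse 5 or 6, without the 4 h library of cKO mouse 3 or with only the compared groups in the fit. There was 1 call without the 8 h library of cKO mouse 2, 43 calls without cKO mouse 1 and 184 without WT mouse 4.

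The WT libraries of the same time lay far apart in some genes that rose in cKO. Rnf187 was at 29.1, 63.4 and 102 TPM at 4 h against 113, 52.7 and 26.9 TPM at 8 h in the WT animals (mice 4, 5 and 6). The levels of Dusp2 were 186, 371 and 529 TPM at 4 h against 285, 199 and 101 TPM at 8 h, and it was called lower in WT (log2 fold change −0.85, adjusted p = 0.0483). In WT mouse 4 both genes were higher at 8 h than at 4 h, as in every cKO mouse, and in WT mice 5 and 6 both were lower. The test of the genotype difference did not pass for Dusp2 (adjusted p = 0.0677), Rnf187 (0.171), Lamp1 (0.166) or Rps2 (0.216). The GC content of transcripts moved with the genotype difference. Over 10 bins of genes ordered by GC content, the median difference ran from −0.13 in the lowest bin to 0.10 in the highest, whereas the cKO medians lay between −0.04 and 0.025 and the WT medians ran from 0.086 to −0.15. With a correction for GC content, chosen after this was seen, 2 genes were called to differ between the genotypes, and 0 with the mouse as a block in addition, while the cKO calls numbered 4401 and 4385.

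**Figure D5:**
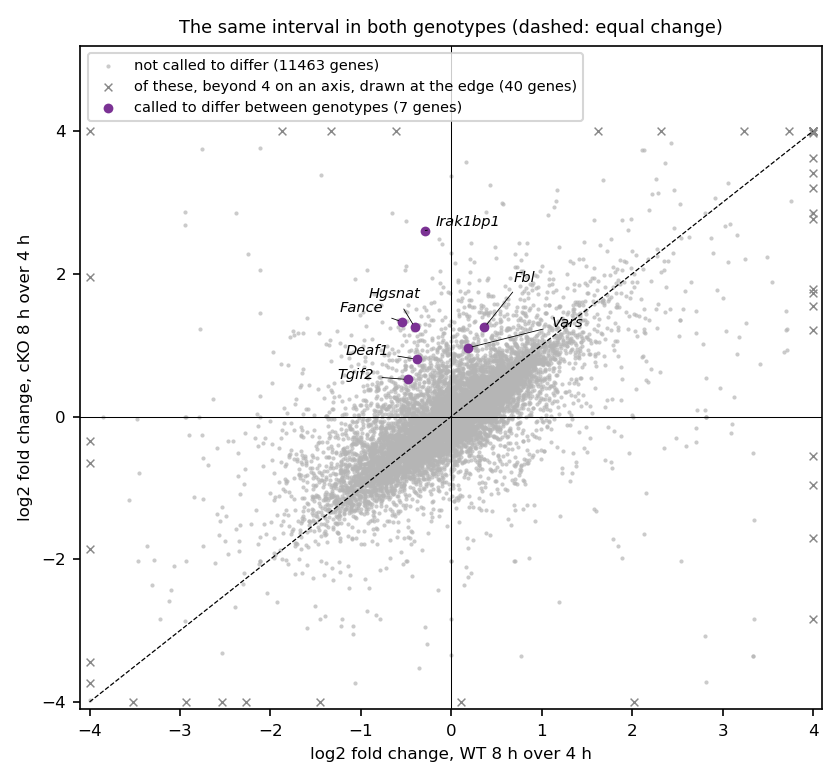
Log2 fold change of 8 h over 4 h in cKO (vertical axis) against that in WT (horizontal axis) for the 11470 tested genes, with the line of equal change dashed and 40 genes beyond 4 on an axis drawn at the edge. The 7 genes called to differ between the genotypes (purple) all lie above the line.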

How the data were processed

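Per the labels' protocols, RNA of sorted CD8+ T cells was measured with Smart-seq2 in 24 libraries, 3 mice for each of 2 genotypes and 4 times, and replicates are separate animals. The authors deposited 1 file per library with expected counts (RSEM's estimated reads per gene, which need not be whole), TPM and FPKM for 23420 genes, per the file headers, and FPKM was not used. Per the submitters' processing notes STAR, RSEM, DESeq2 and the genome mm10 were used, with versions not given in the sources used here.

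Expected counts were rounded and tested with edgeR 4.0.16 in R 4.3.3. Alternatives used DESeq2 1.42.0 and limma 3.58.1. Filtering by expression (filterByExpr) over the 8 groups left 11470 genes, library sizes were adjusted by TMM, and 1 quasi-likelihood fit (robust) to all 24 libraries gave 8 h against 4 h in cKO, the same in WT, and their difference. Tests are two-sided and adjusted by Benjamini and Hochberg over all tested genes. SE was taken as |log2 fold change| over the root of edgeR's F. Deposited TPM values are printed as levels. No strand is kept by the protocol, so overlapping genes and near-identical copies are uncertain. Reads without molecular identifiers are not independent molecules. Positions come from GENCODE M21 (GRCm38), which matched 10769 of 11470 symbols.

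The members, gene lists and tests were chosen with earlier results of these data known. The naming rule takes the 15 largest increases and 15 largest decreases among called genes without overlap between the times. These need the same direction in 3 mice and a higher group whose mean reaches 10 TPM. The rule passes over symbols of unnamed gene models, such as Rik and Gm. It adds up to 8 genes in each direction of the genotype difference, up to 5 called members per list with the smallest adjusted p, and Tcf7, Lef1, Cxcr6, Cd28, Myc, Il2, Ifng, Gzmb, Il2ra, Cd69, Nr4a1 and Irf4. Other list members were named after their values were seen. Some genes that the rule names are not reported here.

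The same animals gave the 4 h and 8 h libraries, so mouse numbers pair them. Deviations from group means of libraries of the same cKO mouse correlated at 0.065, 0.142 and 0.163 (Pearson, across genes), those of different mice at −0.137 to 0.015. The same-mouse values in WT were −0.085, 0.003 and −0.026, so the deviations do not show the pairing there. A fit with the mouse as a block, other scalings, filters and tools, a minimum fold of 1.5, and fits without each mouse or without libraries that stood apart were alternatives, and a GC correction was added after seeing the data. On simulated counts with 200 changed among 11311 tested genes, the fit recovered 62.7% of 1.5-fold, 89.6% of 2-fold and 100% of 4-fold changes, with 10 false calls. In the data 40.4% of tested genes were called, a larger share than was changed in the simulation, so these rates need not hold for the data.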

Additional observations from a re-analysis of the deposited data

Results flagged for a closer look

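For 7 genes the change from 4 to 8 h differed between the genotypes by the test of the difference itself, and all 7 were more positive in cKO. The difference (log2, cKO minus WT) was 2.89 for Irak1bp1 (adjusted p = 0.0181), 1.86 for Fance (0.0384), 1.65 for Hgsnat (0.0181) and 1.18 for Deaf1 (0.0268). For Tgif2 it was 1 (0.0268), for Fbl 0.88 (0.0268) and for Vars 0.78 (0.0268). In cKO these genes rose by 2.61, 1.32, 1.25, 0.8, 0.52, 1.25 and 0.96 on the log2 scale, in that order, and the values in WT were −0.29, −0.54, −0.4, −0.38, −0.48, 0.37 and 0.19. In Tgif2 the cKO change was not called without cKO mouse 3. Transcript GC content moved with this difference across all genes, and its part in these 7 was not tested beyond the correction, under which 2 genes were called.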

How the results depend on the processing

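The 4636 calls of 8 h against 4 h in cKO ranged from 3102 to 4823 over other scalings, filters, tools, the mouse as a block, the GC correction, the leave-one-out fits and fits without libraries that stood apart. With a test against a fold of 1.5 there were 947 (466 higher, 481 lower) in cKO and 1029 (471 and 558) in WT, which asks for larger changes by construction. Without the 8 h library of mouse 2 and the 4 h library of mouse 3, 1542 were higher. Of 354 genes followed, 308 were called, 248 of them in every alternative that tested them, and 19 of 46 others were called at least once. No called gene changed sign. Over 24 libraries the replicate block lost the calls of Ltb, Tigit and Bub1b, gained those of Irf4, Ccl5, Bcl2, Zc3h12a and Calr, and changed no other call of the cKO change in these genes.

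The genotype difference was less stable. Instead of 7 genes, 163 (154 higher, 9 lower) were called without a filter, 4 higher with a filter of 5 CPM, 95 (84 and 11) with DESeq2, 1 higher with limma, 4 higher without Rn45s, and 0 with only the groups compared or against a fold of 1.5. The replicate block called 6, losing Fance and Fbl and adding Cxcr6, the 1 lower, and 1 gene with only the groups compared. Leaving out a mouse gave 0 to 184 calls (0 to 163 higher, 0 to 21 lower). There were 1 without the 8 h library of mouse 2 and 0 without the 4 h library of mouse 3 or without both. The GC correction called 2, and 0 with the replicate block. The cause of these shifts was not tested.

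Libraries of 3 mice and 6158385 to 7699282 expected counts limit what can be called. In simulation 62.7% of 1.5-fold changes were recovered. The simulation changed a much smaller share of genes than the 40.4% called in the data, so this rate need not hold for the data. A small change that missed the threshold is not shown to be absent.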

Other observations

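The 8 genes called in both genotypes with opposite signs were chosen after their values were seen. Besides Dusp2 and Tgif2 they were Ccdc77 (−0.52 in cKO and 0.61 in WT, log2), Klhl25 (0.52 and −0.69), Ggnbp2 (0.56 and −0.55), the receptor adaptor Traf4 (0.68 and −0.66), the lysosomal protein Tmem192 (0.73 and −0.77) and Cyth2 (0.87 and −0.69), an exchange factor for ARF proteins. Of the 8, the test of the difference called Tgif2 alone, with an adjusted p for Dusp2 of 0.0677.

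Genes that rose at least 2-fold had shorter transcripts than genes that fell at least 2-fold. The median transcript length was 2304 bases over 513 genes with a value that rose and 3648 bases over 493 that fell, against 3088 over 10766 tested genes, and the median GC content was 51.7, 50.5 and 49.8%. In the 4 h library of mouse 2 the haemoglobin gene Hba-a1 of red blood cells was at 21.37 TPM, and the summed erythroid and platelet markers of the other 5 cKO libraries at 4 and 8 h were between 1.11 and 2.53 TPM.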
